A study of Mus musculus with 6 samples.

Results

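The enzymes of heme synthesis and breakdown were examined in mouse Th1 cells treated with ALX-5407. The 9 genes were selected by name, from a list drawn up with earlier results of these data known, and they were Alas1, Alad, Uros, Urod, Cpox, Ppox and Fech for synthesis and Hmox1 and Hmox2 for breakdown. They are 9 of 54532 genes listed in the count table. All 9 were among the 15938 genes with enough counts to be tested.

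Splenic CD4+ T cells of 6- to 8-week-old male C57BL/6 mice were purified by magnetic negative selection, activated through CD3 and CD28, and cultured with IL-2, IL-12 and an antibody to IL-4, the conditions that direct them toward the Th1 fate. In 3 cultures the cells received 500 nM ALX-5407, which blocks GlyT1, a glycine transporter encoded by Slc6a9. The 3 control cultures received vehicle, 0.1% DMSO. The sample labels put all cultures at 72 h with the drug present. The study's culture methods also give 72 h, whereas its methods for RNA sequencing give a shorter exposure. The labels call the cultures biological replicates without saying whether they came from separate mice, so the p-values measure the spread between these cultures.

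Heme is an iron-containing porphyrin that serves in the respiratory chain, in catalase and in other oxygen-handling proteins. Its synthesis starts in mitochondria, where ALAS1 joins glycine to succinyl-CoA, continues with several steps in the cytosol, and returns to mitochondria for the last oxidations and the insertion of iron. Heme oxygenases open the ring again and release iron, carbon monoxide and biliverdin. Glycine, the substrate of the transporter that ALX-5407 blocks, is therefore also the substrate of the first step.

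The libraries held 30801753 to 33432304 counts in the vehicle group and 34142475 to 36727788 in the ALX-5407 group, and replicates correlated at 0.988 to 0.991 across genes. The mean count of the 9 genes ran from 190.5 (Uros) to 1773 (Ppox). The 9 CD4 T cell markers were all tested and summed to 3276 to 3521 CPM (counts relative to the TMM-scaled library size) in the vehicle cultures and 3478 to 3511 CPM in the treated cultures, with 3 called higher and 3 lower. Those higher were Cd28, Thy1 and Cd5 (log2 fold changes 0.52, 0.27 and 0.24), and those lower Cd4, Cd3d and Cd3g (-0.46, -0.39 and -0.35). The 6 Th1 markers were all tested as well, with 1 higher, 3 lower, and sums of 1357 to 1566 CPM and 1075 to 1114 CPM. Tbx21 (0.34) was higher, and Stat4 (-1.16), Ifng (-0.79) and Il18r1 (-0.76) were lower. Among all 15938 genes tested, the shares called were 24.5% higher and 23.2% lower. In these bulk samples, fewer cells of a type and less RNA per cell cannot be told apart.

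Most of the 9 genes had an absolute log2 fold change under 0.5, as did 63.8% of all genes tested. Of the 9 genes, Hmox1 and Alas1 were called higher, Ppox was called lower, and 6 were not called at an adjusted p-value under 0.05 in edgeR's quasi-likelihood test. This is 33.3% of the genes, against 47.7% of all genes tested. The 22.2% called higher stand beside 24.5% of all genes, and the 11.1% called lower beside 23.2%. None of the 9 passed the study's threshold for a DEG, an absolute log2 fold change over 1 as well, which 3.36% of all genes passed as higher and 6.68% as lower. The groups did not overlap for Alas1 and Hmox1 (higher) and for Ppox and Hmox2 (lower), where 28.4% of all genes were higher and 27.1% lower without overlap. The median log2 fold change of the 9 genes was -0.05, and that of all genes tested was 0.0053.

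**Figure D1:**
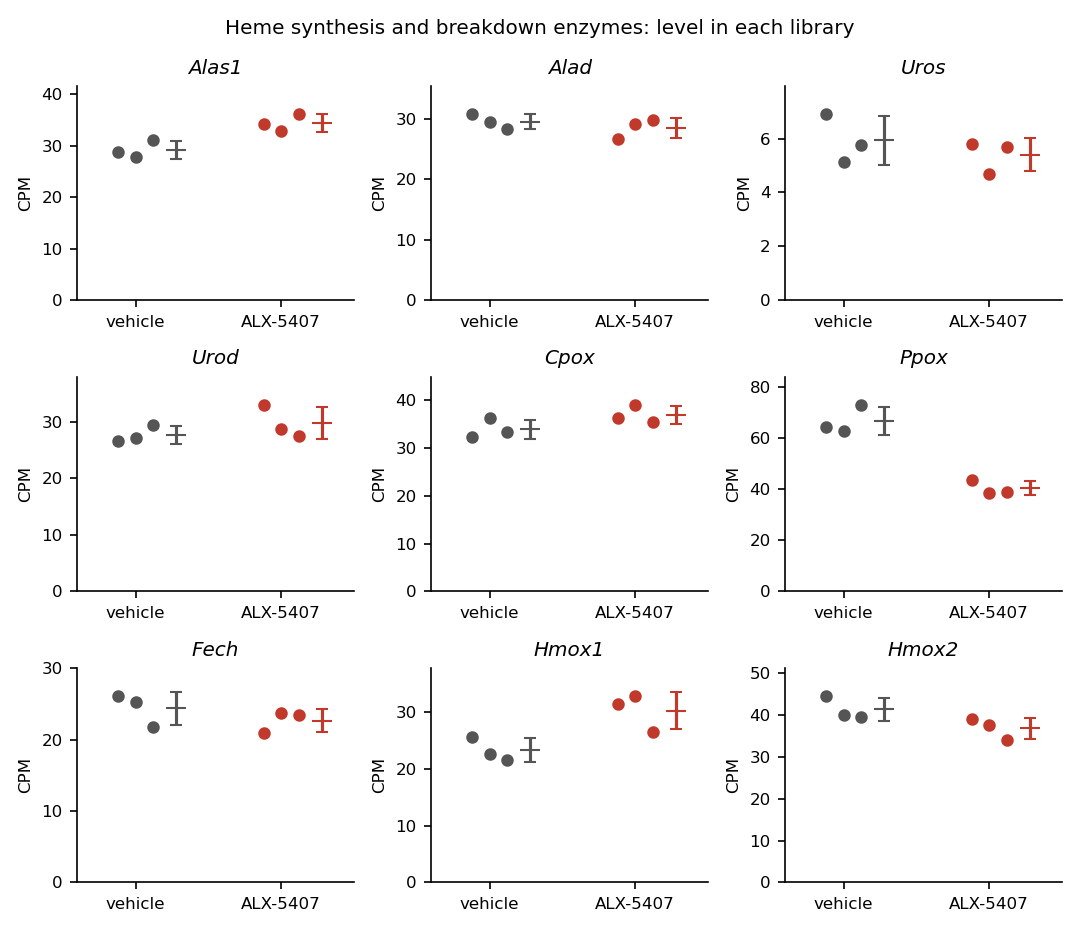
Level of each of the 9 genes in CPM (y axis, from 0) in the 3 vehicle cultures (grey) and the 3 ALX-5407 cultures (red), with the mean and SD beside the points. Ppox shows the widest gap, with 62.6 to 73.0 CPM in vehicle cultures and 38.6 to 43.4 CPM with ALX-5407.

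Ppox, protoporphyrinogen oxidase, carries out the last oxidation before iron is inserted. It lies on the minus strand of chromosome 1 from 171275990 to 171281186 (GRCm38). Its level was 64.3, 62.6 and 73.0 CPM in the vehicle cultures and 43.4, 38.6 and 39.0 CPM with ALX-5407. Every treated culture was well below every vehicle culture. The level thus fell by 39.5%, a log2 fold change of -0.72 (standard error, SE, of 0.0841, 95% interval -0.90 to -0.55, edgeR adjusted p = 3.19e-06). With any 1 culture left out, the log2 fold change stayed between -0.78 and -0.67.

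The exons of Ppox share 17.5% of their bases with B4galt3, a galactosyltransferase gene on the opposite strand. B4galt3 was lower as well, with a log2 fold change of -0.57 (edgeR adjusted p = 7.04e-05). The use of strand in the counting is not stated, so reads of the shared bases cannot be assigned to either gene, and the part of B4galt3 in the Ppox value was not tested.

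Alas1, the rate-limiting enzyme of the pathway outside red cell precursors, lies on the minus strand of chromosome 9 from 106233455 to 106248654. It was counted at 28.8, 27.8 and 31.1 CPM in vehicle cultures and at 34.2, 32.9 and 36.2 CPM with ALX-5407. The groups did not overlap, but the gap between the highest vehicle and the lowest treated culture was narrow. The rise was 17.8%, a log2 fold change of 0.24 (SE 0.0857, 95% interval 0.055 to 0.42, edgeR adjusted p = 0.0317). This call depended on the data used. The adjusted p-value from edgeR was 0.0933 without vehicle replicate 1, 0.139 without vehicle replicate 2, 0.0686 without ALX-5407 replicate 1, 0.102 without ALX-5407 replicate 3 and 0.0909 with upper-quartile scaling. In each of these only Hmox1 of the 9 genes was called higher. An antisense gene shares 7.53% of the exon bases of Alas1, with at most 1 count in any culture.

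The promoter windows of these 2 genes are shown because Ppox and Alas1 were called in opposite directions. RefSeq windows (GRCm38.p6, 250 bases before to 50 after a transcription start) were matched by symbol for 7 of the 9 genes, leaving out Hmox1 and Fech. Each is written from 5′ to 3′ on the gene's strand, with capitals marking motif matches. RefSeq lists 2 starts for Alas1, and the window shown, chr9:106247681-106247980, is that of the start within 50 bases of GENCODE transcript starts. For Ppox, the window is chr1:171281137-171281436.
Alas1: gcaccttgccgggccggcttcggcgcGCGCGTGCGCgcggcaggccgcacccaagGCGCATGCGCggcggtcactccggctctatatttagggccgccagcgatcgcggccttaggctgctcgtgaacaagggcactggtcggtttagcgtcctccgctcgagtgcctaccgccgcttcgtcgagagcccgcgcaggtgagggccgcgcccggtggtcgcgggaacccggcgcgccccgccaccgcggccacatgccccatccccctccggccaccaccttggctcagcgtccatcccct
Ppox: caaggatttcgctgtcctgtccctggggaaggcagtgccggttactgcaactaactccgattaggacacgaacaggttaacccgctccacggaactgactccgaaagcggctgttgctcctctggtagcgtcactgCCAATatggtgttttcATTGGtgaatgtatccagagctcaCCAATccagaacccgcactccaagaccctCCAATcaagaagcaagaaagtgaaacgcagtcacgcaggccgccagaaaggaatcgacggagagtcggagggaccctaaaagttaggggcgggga

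The capitals in the Alas1 window are 2 matches to the core of the site of NRF1, a factor that controls many mitochondrial genes (GCGCANGCGC, both strands), 224 and 195 bases before the start. Of 13 GENCODE transcripts of Alas1, 2 start within 50 bases of the start shown and 0 within 50 bases of the other RefSeq start. Counted from that other start, the same matches lie 0 and 29 bases after it. Such a match stood in 4.59% of 32817 promoter windows, and among the 7 genes with a window also in that of Uros. The capitals in the Ppox window are 4 CCAAT boxes (CCAAT or its reverse complement), at 114, 98, 74 and 45 bases before the start, and 37.4% of windows held at least 1, those of Alad and Urod among them. The E-box CACGTG was found in windows of Alad, Urod and Uros and in 7.15% of all windows. Letters of the ATF4 element (TGATGNAA, 3.97% of windows) and of the antioxidant response element (TGACNNNGC, 12.4%) were in no window of the 7 genes. These matches describe the letters only.

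The cytosolic steps between ALAS1 and the return to mitochondria showed no called change among the 9 genes. Alad (chromosome 4, 62509169 to 62519918, minus strand), which condenses the product of ALAS1 to porphobilinogen, had 30.8, 29.4 and 28.3 CPM in vehicle cultures and 26.7, 29.1 and 29.8 CPM with ALX-5407. The groups overlapped, and the log2 fold change was -0.05 (95% interval -0.23 to 0.13, edgeR adjusted p = 0.675). Uros (chromosome 7, 133686243 to 133710072, minus strand), which closes the ring, was the least abundant of the 9 genes, at 6.91, 5.14 and 5.75 CPM against 5.81, 4.69 and 5.70 CPM. Its interval was the widest, -0.49 to 0.21 around a log2 fold change of -0.14 (edgeR adjusted p = 0.528).

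Urod (chromosome 4, 116989965 to 116994413, minus strand), which removes carboxyl groups from the ring, had 26.6, 27.1 and 29.5 CPM in vehicle cultures and 33.0, 28.8 and 27.6 CPM with ALX-5407. Only ALX-5407 replicate 1 was above all vehicle cultures, and the log2 fold change was 0.10 (95% interval -0.096 to 0.30, edgeR adjusted p = 0.392). Of the mitochondrial steps, Cpox (chromosome 16, 58670292 to 58717636, plus strand), which makes protoporphyrinogen, had 32.4, 36.2 and 33.3 CPM against 36.3, 39.1 and 35.5 CPM. Its log2 fold change was 0.12 (95% interval -0.057 to 0.30, edgeR adjusted p = 0.256), and ALX-5407 replicate 3 lay within the vehicle range. The exons of Cpox share 3.06% of their bases with Gpr15 on the opposite strand, which averaged 14.3 counts.

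Fech, ferrochelatase, inserts iron in the final step. It was counted at 26.1, 25.2 and 21.8 CPM in vehicle cultures and at 20.9, 23.7 and 23.4 CPM with ALX-5407, and the groups overlapped. The log2 fold change was -0.11 (95% interval -0.32 to 0.11, edgeR adjusted p = 0.41). For the genes of these paragraphs the intervals reach from -0.487 to 0.302 on the log2 scale at their widest, so changes of that size cannot be told from no change with 3 cultures a group.

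**Figure D2:**
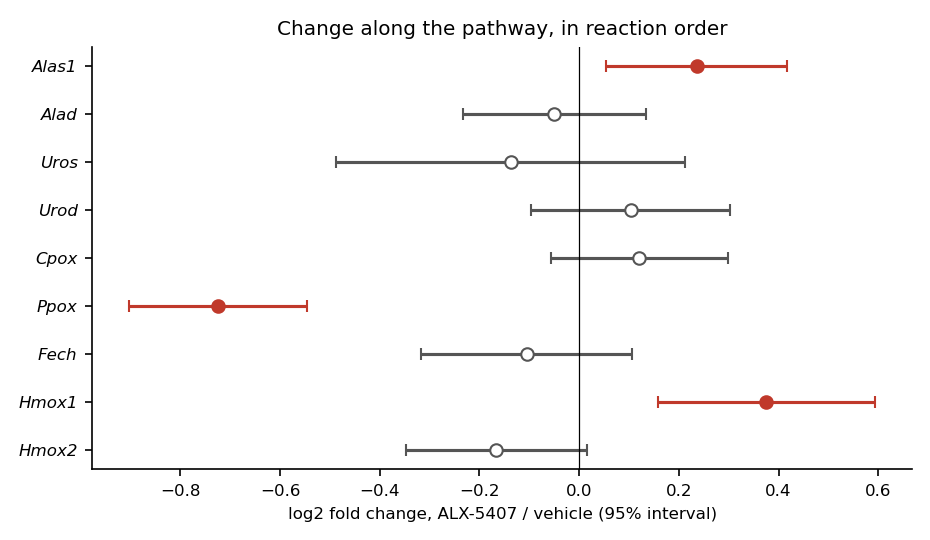
Log2 fold change of ALX-5407 over vehicle (x axis) with 95% intervals for the 9 genes in reaction order, filled red where the adjusted p-value was under 0.05. Ppox (-0.72) stands apart, and the other synthesis genes lie between -0.14 and 0.24.

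Hmox1, the inducible heme oxygenase, lies on the plus strand of chromosome 8 from 75093621 to 75100589, and no other gene shares its exons. It was counted at 25.7, 22.7 and 21.6 CPM in vehicle cultures and at 31.4, 32.9 and 26.6 CPM with ALX-5407. The lowest treated culture, replicate 3, was just above the highest vehicle culture. Hmox1 rose by 29.8%, a log2 fold change of 0.38 (SE 0.103, 95% interval 0.16 to 0.59, edgeR adjusted p = 0.00644). With 1 culture left out the adjusted p-value from edgeR ran from 0.00256 to 0.042, and the log2 fold change from 0.31 to 0.47.

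Hmox2 (chromosome 16, 4726361 to 4766742, plus strand), the constitutive heme oxygenase, had 44.6, 40.2 and 39.5 CPM in vehicle cultures and 39.0, 37.6 and 34.1 CPM with ALX-5407. Each treated culture was below each vehicle culture, but the neighbouring values were close. The log2 fold change was -0.17 (95% interval -0.35 to 0.015, edgeR adjusted p = 0.123). With upper-quartile scaling it was -0.22 (edgeR adjusted p = 0.0466). The exons of Hmox2 share 40.2% of their bases with Cdip1 on the opposite strand, whose log2 fold change was -0.11 (edgeR adjusted p = 0.322), and reads of the shared bases cannot be assigned.

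Macrophages are rich in HMOX1, and erythroid cells in the whole synthesis route, so their markers were counted in the same libraries. The 15 macrophage and monocyte markers summed to 15.7 to 21.1 CPM in vehicle cultures and 5.72 to 6.47 CPM with ALX-5407. Nearly all of this was Cd68 (18.4 and 5.44 CPM), the other 14 were too low to be tested, and C1qa, C1qb, C1qc and Spic had 0 counts in every library. Of 11 erythroid markers, 10 were in the table, and they summed to 12.6 to 13.6 CPM against 8.04 to 10.02 CPM, mostly from the erythropoietin receptor gene Epor. Rhag had 0 counts, and the globin genes Hba-a1, Hba-a2, Hbb-bs and Hbb-bt averaged at most 2 counts. Alas2, the erythroid form of the first enzyme, averaged 15.8 counts against 1078 for Alas1, with a log2 fold change of 0.20 (edgeR adjusted p = 0.754). The 7 B cell markers summed to 23.9 to 27.95 CPM against 18.4 to 22.0 CPM, where Ebf1 fell and 4 others were called higher. The 7 dendritic cell markers summed to 4.05 to 4.87 CPM against 3.05 to 3.73 CPM, and the 6 markers of NK and CD8 T cells to 11.5 to 12.7 CPM against 12.3 to 13.8 CPM. The part of these markers in the results was not tested.

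Levels were compared between the genes per kilobase of gene length (RPKM, the CPM divided by the deposited length). Lengths merge the exons of all transcripts, which lowers this value for genes with many transcript forms, such as Alas1 with 13 transcripts. Fech is the exception: its deposited length of 2901 bases is far under the 13838 bases of its merged exons in GENCODE M21, so its place in the order is uncertain. Reads of the exon bases that Hmox2 shares with Cdip1, and Ppox with B4galt3, cannot be assigned, so the places of Hmox2 and Ppox are uncertain too. In vehicle cultures Hmox2 was highest at 18.7 ± 1.26 RPKM (SD, n = 3), followed by Alad (15.8 ± 0.661), Ppox (14.8 ± 1.23) and Hmox1 (13.3 ± 1.20). Among these, the ranges of Alad and Ppox overlapped, as did those of Ppox and Hmox1. Urod (10.7 ± 0.609 RPKM) and Fech (8.41 ± 0.787 RPKM) came next, without overlap with their neighbours. Cpox (5.10 ± 0.302 RPKM) and Alas1 (4.73 ± 0.275 RPKM) overlapped each other, and Uros was lowest at 1.66 ± 0.252 RPKM.

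With ALX-5407, Hmox1 had the highest mean at 17.3 ± 1.89 RPKM (SD, n = 3), but its range overlapped that of Hmox2 (16.6 ± 1.13 RPKM), which in turn overlapped Alad (15.3 ± 0.871 RPKM). Ppox went from the third to the fifth place, at 8.93 ± 0.601 RPKM, between Urod (11.5 ± 1.10 RPKM) and Fech (7.81 ± 0.539 RPKM), and overlapped neither. Uros stayed last at 1.51 ± 0.172 RPKM. From the highest to the lowest gene the levels spanned 11.3-fold in vehicle cultures and 11.5-fold with ALX-5407.

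**Figure D3:**
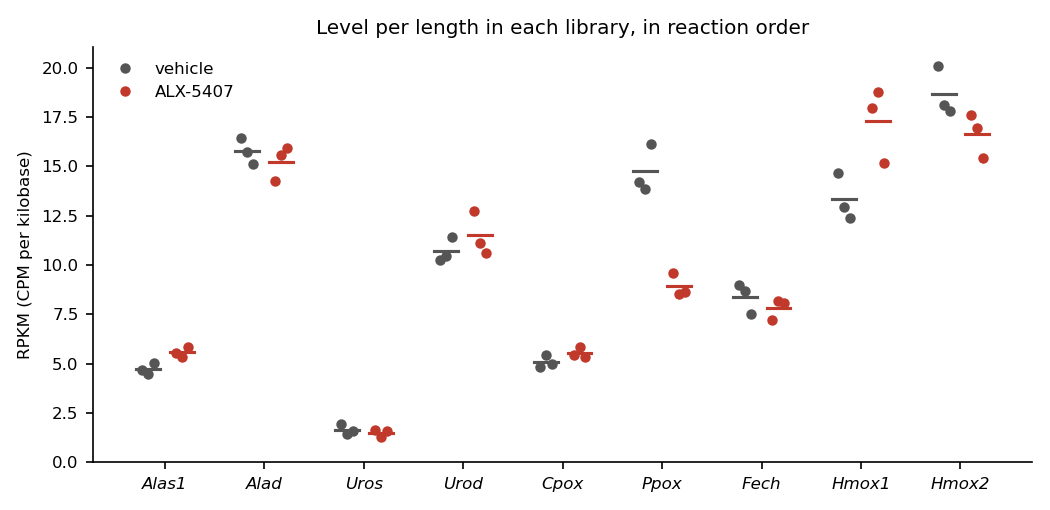
Level per length in RPKM (y axis, from 0) of the 9 genes in reaction order, with points for cultures and a line for the mean, vehicle in grey and ALX-5407 in red. Alas1, Uros and Cpox are low in both groups, and Ppox lies above Urod in vehicle cultures and below it with ALX-5407.

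Ratios within a library do not depend on how library sizes are scaled. The values of Hmox2 and Ppox in them depend on how reads of exon bases shared with other genes were counted, which is not known. The ratio of Hmox1 to Hmox2, on the RPKM scale, was 0.729, 0.715 and 0.695 in vehicle cultures and 1.02, 1.11 and 0.985 with ALX-5407. The replicates of each group lay close together, and the treated cultures were all higher. The ratio of Alas1 to Ppox was 0.328, 0.325 and 0.312 in vehicle cultures and 0.576, 0.624 and 0.679 with ALX-5407. Of the summed RPKM of the 7 synthesis genes, Ppox made up 24.1 ± 1.74% in vehicle cultures and 15.9 ± 0.992% with ALX-5407 (SD, n = 3 each). Alas1 made up 7.74 ± 0.352% and 9.94 ± 0.479%. With 3 cultures a group, an exact permutation test of such a ratio cannot give a two-sided p-value under 0.1.

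Of all genes tested, 24.5% were called higher and 23.2% lower, the shares to set beside the counts of the lists that follow. Of 6 other enzymes of the route, all tested, 1 was higher and 0 lower, and 1 (Hccs, which attaches heme to cytochrome c) was lower at an unadjusted p-value under 0.05. The called gene was Cox15, an enzyme of heme A synthesis, with a log2 fold change of 0.41 (edgeR adjusted p = 0.00134). Hccs had a log2 fold change of -0.19 (edgeR adjusted p = 0.06). It was called lower with RLE scaling, upper-quartile scaling, the filter at 1 CPM and the replicate block, and in edgeR fits without vehicle replicate 2 (adjusted p = 0.0493) and without ALX-5407 replicate 3 (adjusted p = 0.0293). The biliverdin reductases, which turn the product of heme oxygenase into bilirubin, had values of 0.22 (Blvra, adjusted p = 0.127) and 0.11 (Blvrb, edgeR adjusted p = 0.586). Without vehicle replicate 3, Blvra was called as well, so that 2 were higher, with 0.35 (edgeR adjusted p = 0.00699).

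Of 22 genes for heme and porphyrin transport, 20 were tested. Of these, 4 were called higher and 5 lower, beside 24.5% and 23.2% of all genes tested. The median log2 fold change was 0.0003, and its sign changed with the scaling (-0.054 with upper-quartile scaling). Tspo, a porphyrin- and cholesterol-binding protein of the outer mitochondrial membrane, fell from 146, 134 and 157 CPM to 93.9, 94.4 and 74.8 CPM, a log2 fold change of -0.73 (edgeR adjusted p = 7.1e-06). Slc25a38, the carrier that brings glycine into mitochondria for ALAS, fell from 19.7, 18.9 and 16.9 CPM to 11.2, 14.3 and 14.2 CPM. No treated culture reached the vehicle range, and the log2 fold change was -0.48 (edgeR adjusted p = 0.00293). Abcg2, a porphyrin exporter, fell by 0.51 on the log2 scale, and Slc25a39, a mitochondrial carrier that imports glutathione, rose by 0.51. Without ALX-5407 replicate 3, 3 of these genes were called lower.

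On the substrate side, 14 genes for glycine and succinyl-CoA supply and for the turnover of ALAS1 were tested, with 5 higher, 2 lower and a median of 0.15. Both serine hydroxymethyltransferases, which make glycine from serine, rose, with log2 fold changes of 0.74 (Shmt1) and 0.84 (Shmt2). Slc6a9, the gene of the inhibited transporter, had 1.35. Ogdh, listed for succinyl-CoA supply, rose by 0.61 on the log2 scale (edgeR adjusted p = 2.42e-06), while Dlst, Dld, Sucla2, Suclg1 and Suclg2 were not called. Gldc, which breaks glycine down, fell by 1.61 on the log2 scale from a mean of only 68 counts over all cultures. The unfoldase Clpx, which acts on ALAS1 in mitochondria, fell by 0.30 (adjusted p = 0.00252), and the protease Lonp1, which degrades it, rose by 0.41 (edgeR adjusted p = 0.000164).

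Ferrochelatase carries an iron-sulfur cluster, and 12 of 13 listed genes for cluster assembly were in the table and tested, with 3 higher, 2 lower and a median of 0.059. Glrx5, a glutaredoxin of the assembly route, rose from 27.0, 28.8 and 27.3 CPM to 43.1, 41.7 and 38.3 CPM (log2 fold change 0.57, edgeR adjusted p = 3.78e-05). The chaperone Hspa9 had 0.48 and its partner Hscb -0.64. Iscu, the scaffold on which clusters are built, fell from 25.4 ± 0.549 to 19.1 ± 2.91 CPM (SD, n = 3 each), a change of -0.41 on the log2 scale (edgeR adjusted p = 0.00539).

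Of 19 regulators that sense heme or act on the 9 genes, 17 were tested, with 8 higher, 2 lower and a median of 0.17. Bach1, the heme-binding repressor of Hmox1, rose from 21.1, 19.9 and 19.5 CPM to 41.7, 37.4 and 36.4 CPM. The treated cultures were all far above the vehicle cultures, with a log2 fold change of 0.93 (SE 0.0898, edgeR adjusted p = 4.45e-07). Nfe2l2, which encodes NRF2, the activator at the same elements, had -0.10 (95% interval -0.29 to 0.086, edgeR adjusted p = 0.369). Eif2ak1, the kinase that responds to low heme, had -0.12 (edgeR adjusted p = 0.272), and without vehicle replicate 3 it was called lower (-0.20, edgeR adjusted p = 0.0437).

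The heme-binding repressor Nr1d1 had a log2 fold change of 0.90 from a mean of 53.8 counts (edgeR adjusted p = 0.0123), and this call was lost without ALX-5407 replicate 2 (edgeR adjusted p = 0.0639). The coactivator Ppargc1b had 0.71, and the small MAF gene Maff, a partner of BACH1 and NRF2, had -0.54. The number of regulators called lower was 4 without vehicle replicate 3, 1 without ALX-5407 replicate 1, 1 without ALX-5407 replicate 2 and 1 with library size alone.

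Other genes listed as repressed by BACH1 and activated by NRF2, through antioxidant response elements, numbered 18. All were tested, with 11 higher, 4 lower and a median of 0.33. Whether each carries such an element was not examined. The increases led by Slc7a11, the cystine transporter (log2 fold change 2.31), Srxn1, sulfiredoxin (1.42), Aldh1b1 (0.88) and Txnrd1, thioredoxin reductase (0.73) exceeded that of Hmox1 (0.38). In edgeR the adjusted p of each was at most 1.6e-05. The 4 genes called lower were Hmgn5 (-0.70), Txn1 (-0.50), Fth1 (-0.49) and Pgd (-0.25). The list summed to 1794 to 2121 CPM in vehicle cultures and 1864 to 2007 CPM with ALX-5407. Abundant genes weigh most in these sums. The highest in vehicle cultures, Fth1 and Txn1, fell from means of 681 and 315 CPM to 484 and 224 CPM. Several genes of this list are also targets of ATF4, and the list does not separate these factors.

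Proteins that carry heme were listed with 28 genes, of which 22 were tested, with 7 higher, 7 lower and a median of -0.04. This median was 0.02 with library size alone, 0.0082 without vehicle replicate 2 and 0.029 without ALX-5407 replicate 3. The mitochondrial gene mt-Cytb, cytochrome b, fell from 1957 ± 342 to 872 ± 43.2 CPM (SD, n = 3 each), and the nitric oxide synthase Nos2 from 34.9 ± 4.94 to 18.9 ± 2.57 CPM. Dgcr8, a heme-binding subunit of the microRNA processor, had 0.77 (edgeR adjusted p = 3.96e-05). Gucy1b1, the heme subunit of guanylate cyclase, had 0.83 (edgeR adjusted p = 0.0298), and its edgeR call was lost without vehicle replicate 1 (adjusted p = 0.0661), without vehicle replicate 3 (adjusted p = 0.112) and without ALX-5407 replicate 3 (adjusted p = 0.163). In DESeq2 its adjusted p was 0.0506.

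**Figure D4:**
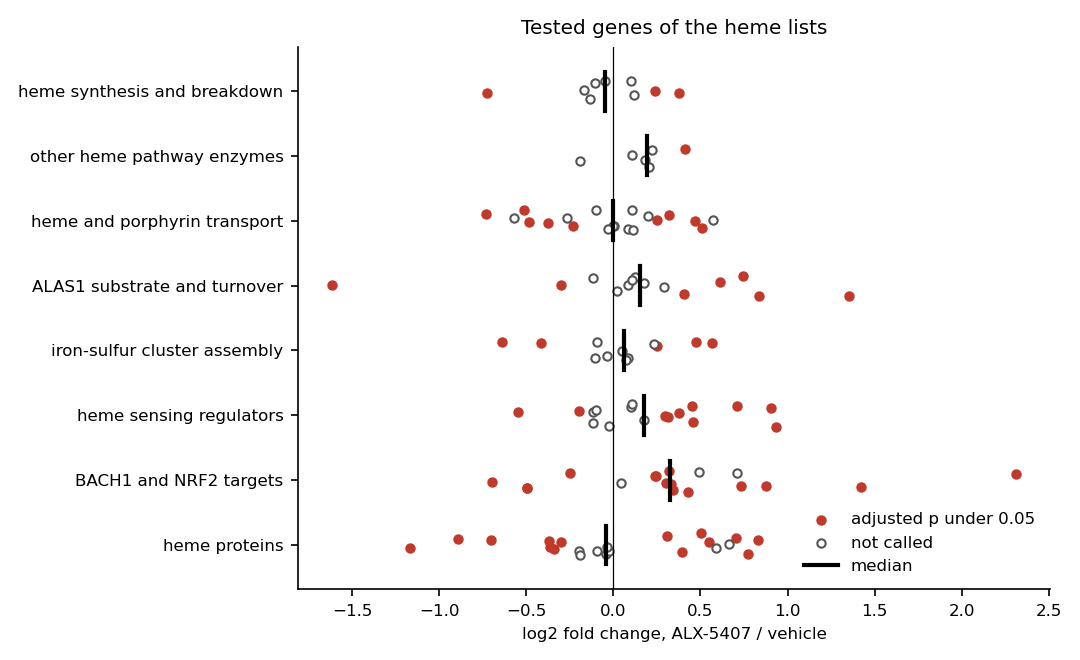
Log2 fold change of ALX-5407 over vehicle (x axis) of each tested gene in the 8 heme lists (rows), red where the adjusted p-value was under 0.05, with a black bar at the list's median. The 9 genes of the first row span -0.72 to 0.38, and the antioxidant response list reaches 2.31.

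The genes whose log2 CPM ran most like that of Alas1 over the 6 libraries were Cfap54, Prkdc and Tyms (Pearson's r of 0.996, 0.995 and 0.995). For Hmox1 they were Cebpb, Ddr1 and Foxd2os (0.997, 0.992 and 0.991). These are descriptions over 12116 genes, of which 418 had an r over 0.95 with Alas1 and 127 with Hmox1, and the 6 points share the difference between the groups.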

How the data were processed

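The authors deposited raw counts, the number of reads on each of 54532 genes in 6 libraries, without normalization or pooling. The submitters' processing notes name fastp, HISAT2 2.0.5, featureCounts 1.5.0-p3 and mm10. The labels describe poly(A) capture and the study's methods ribosomal RNA depletion. The use of strand is not given in the sources used here. The deposited lengths equal merged GENCODE M21 exons for each of the 9 genes except Fech.

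Library columns were matched to samples by replicate number and, for the treated cultures, by the drug name. The control columns carry a name that the labels do not use and were assigned to the vehicle cultures as the only other group. Counts were filtered with filterByExpr (minimum count 10, minimum total 15), TMM-scaled and tested in edgeR 4.0.16 (R 4.3.3) by the two-sided quasi-likelihood test, and p-values were adjusted by Benjamini-Hochberg over all 15938 genes. Standard errors came from the fold change and its F statistic. The procedure was also run on simulated counts with far fewer changed genes than were called here, which does not test it under changes this widespread. Alternatives used DESeq2 1.42.0, limma-voom (limma 3.58.1), other scalings, filters, a replicate block and leaving out each library.

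The 9 genes and the 14 other lists were chosen with earlier results of these data known. Beyond the 9 genes, the text names Alas2, Blvra and Blvrb, up to 4 called genes with the largest changes in each heme list (mean of at least 10 counts), and stated regulators. Some genes of the pathway and marker lists are not reported here and were left out of the lists. Hccs, the genes of succinyl-CoA supply, the antioxidant response genes called lower, markers and overlapping genes were named after their values were seen. Motifs were chosen with the sequences known. Figures were drawn with matplotlib 3.10.9.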

Additional observations from a re-analysis of the deposited data

How the results depend on the processing

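The calls of Ppox and Hmox1 held in edgeR under every scaling and filter tried, in DESeq2, in limma-voom, with the replicate block and without each culture. With upper-quartile scaling, 1 of the 9 genes was called higher and 2 lower, with Alas1 at 0.18 and Hmox2 at -0.22. With the DEG threshold, 0 were called in either direction. Alad had 0.0097 with library size alone. One alternative, library size alone, called 1 regulator lower. Of the other enzymes of the route, 1 was called lower with RLE scaling, upper-quartile scaling, the filter at 1 CPM and the replicate block. Median log2 fold changes over all genes lay between -0.0477 and 0.064 across the scalings.

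Without 1 culture, the number of the 9 genes called higher was 1 to 2, Alas1 ranged from 0.19 to 0.27 and Alad from -0.095 to 0.0027. Genes called lower ranged from 0 to 1 (other enzymes), 3 to 6 (transport) and 1 to 4 (regulators), and genes called higher from 1 to 2 (other enzymes) and 2 to 3 (cluster assembly). Alas2 ranged from -0.0199 to 0.4499 and Blvrb reached -0.04, not called at these values.

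Same-numbered cultures deviated together with correlations of 0.047, 0.046 and 0.175. Vehicle replicates 2 and 3 correlated best with their own number, and vehicle replicate 1 with ALX-5407 replicate 2 (0.129). Whether the numbers mark pairs is therefore not settled, and they were not taken as pairs in the main fit. A replicate block gave 49.6% of all genes called, against 47.7% without it. With the replicate block, 2 of the 9 genes were higher and 1 lower, as without it. Depth limits the genes with few counts: the SE was 0.467 for Alas2 (mean 15.8 counts) and 0.275 for Nr1d1 (mean 53.8 counts), against 0.0857 for Alas1 (mean 1078 counts).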
